A study of Mus musculus with 8 samples.

Results

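Tumor necrosis factor (TNF) is a cytokine that myeloid cells release within minutes to hours of tissue damage. It binds TNFR1, which is encoded by Tnfrsf1a and is found on most cells, and TNFR2, which is encoded by Tnfrsf1b and is found mainly on leukocytes. Both receptors recruit TRAF adaptors and activate the IkB kinases, which release NF-kB dimers to the nucleus, and NF-kB then induces its own inhibitors, so that the signal is normally short. In the eye, microglia of the retina and macrophages of the choroid are known TNF sources. Described here are 9 genes of this pathway, chosen by symbol and by role from the 32285 genes in the count tables: the ligand Tnf, the receptors Tnfrsf1a and Tnfrsf1b, the NF-kB subunits Nfkb1 and Relb, the adaptor Traf1, and the feedback genes Tnfaip3 (the ubiquitin-editing enzyme A20), Nfkbia (the inhibitor IkBα) and Nfkbiz (the nuclear regulator IkBζ). The rule uses symbols and not values, although earlier results of these data were known when the genes were chosen. All 9 were detected, and all 9 passed the filter on low counts.

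The cells were CD45+ leukocytes sorted from posterior eye cups (retina, retinal pigment epithelium, choroid and sclera) of young adult female mice, profiled by CITE-seq, which counts RNA molecules and antibody tags in the same cells. The groups were wildtype (WT) mice without laser, WT mice on the third day after laser burns that induce choroidal neovascularization (CNV, growth of choroidal vessels through Bruch's membrane), and Nr4a1-/- mice under the same pair of conditions. Nr4a1 encodes a nuclear receptor that non-classical monocytes need, and the deletion is germline, so every cell of those mice carried it. The labels give C57BL/6J for every group, while the methods give a mixed B6;129S2 stock for Nr4a1-/-, so genotype and strain cannot be told apart. Each group was 1 library of pooled eyes, without a replicate. For that reason the comparisons of lineages were tested over the 4 libraries, whereas laser and genotype are given as ratios with 95% intervals that cover counting error only.

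Of 11624 barcodes, 11223 passed the cell filters, and 17 barcodes occurred in more than 1 library. RNA depth ran from 7848548 unique molecular identifiers (UMIs, 1 per captured RNA molecule) in Nr4a1-/- laser to 38052948 in WT laser, with medians of 3676 and 7618 UMIs per cell. Marker lists that held none of the 9 genes assigned 8888 cells to 11 lineages. Migratory dendritic cells (DC) numbered 5 in each control library and were used from the laser libraries only (46 and 20 cells). Non-classical monocytes numbered 205 and 131 in the WT libraries against 4 and 0 in Nr4a1-/-, and were used from WT only. The defining tag stood highest in the named lineage in 4 of 4 libraries for Ly-6G (neutrophils), CX3CR1 (microglia) and CD103 (cDC1), but in only 1 of 4 libraries for CD3 (T cells) and for NK-1.1 (NK cells). CD64, the tag for macrophages, was highest in microglia in 4 of 4 libraries, with macrophages second. Nr4a1 RNA stood at 0.207 to 0.449 of its WT level over 9 lineages without laser and at 0.140 to 0.714 over 10 lineages with laser.

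The promoters of the ligand and of 2 inhibitors are shown because both inhibitor windows hold a κB site, the element that NF-kB dimers bind, whereas the ligand's window does not hold a full match. Sequences are the 250 bases upstream of the RefSeq start on GRCm38.p6, printed 5′ to 3′ on the gene's strand, with matches to the degenerate 10-base κB consensus (searched on both strands) in capitals. Nfkbia lies on the minus strand of chromosome 12 (GRCm38, 55489410 to 55492647), and its window chr12:55492648-55492897 carries GGAAATTCCC at 20 to 29 bases before the start.
Nfkbia promoter: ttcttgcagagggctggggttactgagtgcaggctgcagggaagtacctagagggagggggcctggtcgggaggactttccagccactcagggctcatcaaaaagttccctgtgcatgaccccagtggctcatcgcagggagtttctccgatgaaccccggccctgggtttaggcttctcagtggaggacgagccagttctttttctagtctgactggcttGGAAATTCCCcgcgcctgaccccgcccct
Tnf lies on the minus strand of chromosome 17 (35199381 to 35202007), and its window is chr17:35202008-35202257.
Tnf promoter: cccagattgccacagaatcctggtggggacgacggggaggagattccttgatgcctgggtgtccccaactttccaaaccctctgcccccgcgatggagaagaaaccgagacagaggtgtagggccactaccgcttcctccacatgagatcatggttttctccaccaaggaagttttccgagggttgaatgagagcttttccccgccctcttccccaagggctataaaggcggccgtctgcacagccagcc
Tnfaip3 lies on the minus strand of chromosome 10 (19000910 to 19015657), and 30 bases are shown around each of its matches, at 3 to 12 bases (chr10:19015411-19015440) and at 116 to 125 bases (chr10:19015516-19015545) before the start.
Tnfaip3 near site: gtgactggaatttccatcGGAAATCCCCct
Tnfaip3 far site: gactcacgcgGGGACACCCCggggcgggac

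Windows were at hand for 6 of the 9 genes (7 windows, since a gene can have more than 1 start), and the consensus occurred in 2 of these 7 (28.6%), against 2382 of 32851 windows of all genes (7.25%). A match describes letters in a window and not occupancy, and a window without one shows only that these letters are not in it. The other genes are annotated on GRCm38 at chromosome 6, 125349362 to 125362484 (Tnfrsf1a), chromosome 4, 145213463 to 145246870 (Tnfrsf1b), chromosome 3, 135584655 to 135691547 (Nfkb1), chromosome 7, 19606217 to 19629438 (Relb), chromosome 2, 34941750 to 34961772 (Traf1), and chromosome 16, 55811375 to 55838899 (Nfkbiz). All 9 are protein-coding, and none lies on chromosome 15, which holds Nr4a1.

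Tnf RNA was highest in microglia. Levels were counted as UMIs of the gene per 1000000 UMIs of the lineage in a library (CPM). Where 4 values are listed, the WT libraries come first (control, then laser), followed by those of Nr4a1-/- in the same order. Microglia held 1157, 639.6, 935 and 617 CPM of Tnf, a mean of 837 ± 258 (SD, n = 4 libraries). Neutrophils were next by mean but spread widely, at 246, 580, 130 and 1233 CPM, and their range overlapped that of microglia. Macrophages held 252, 216, 276 and 168 CPM, above both WT non-classical monocyte samples (116 and 134 CPM). In cDC1, Tnf stood at 173 CPM in WT control, most of it in 1 cell as given further on, and at 13.7 to 34.3 CPM in the other 3 libraries. The remaining lineages were low: cDC2 ranged from 48.1 to 68.2 CPM, classical monocytes from 21.7 to 65.5, B cells from 8.69 to 31.5, T cells from 11.8 to 30.8, NK cells from 0 to 20.1, and migratory DC stood at 7.54 and 7.89. Ranges of neighbors in this lower part of the order overlapped.

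The share of cells with a Tnf UMI gave the same leading lineages. After each cell was thinned to 2000 UMIs, 646 of 1015 microglia (63.6%, exact 95% interval 60.6 to 66.6) held at least 1 Tnf UMI, against 499 of 1718 macrophages (29.0%) and 87 of 330 neutrophils (26.4%). Without thinning the shares were 83.0%, 52.9% and 35.0%, at median depths of 8151, 7436 and 3374 UMIs per cell, and thinning left out 33 of the 48 neutrophils of Nr4a1-/- laser as too shallow. Droplets can also capture free RNA, and 1 of 56 non-immune cells (1.79%) held a Tnf UMI after thinning, at a median depth of 4167 UMIs. The shares in NK cells (1.18%), B cells (2.48%), migratory DC (2.67%) and T cells (3.36%) were at or near that background. Since the background rests on 1 cell, free RNA and low or rare expression cannot be told apart in these lineages. Their Tnf level is therefore not read as expression below, although it enters the lineage contrasts.

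**Figure D1:**
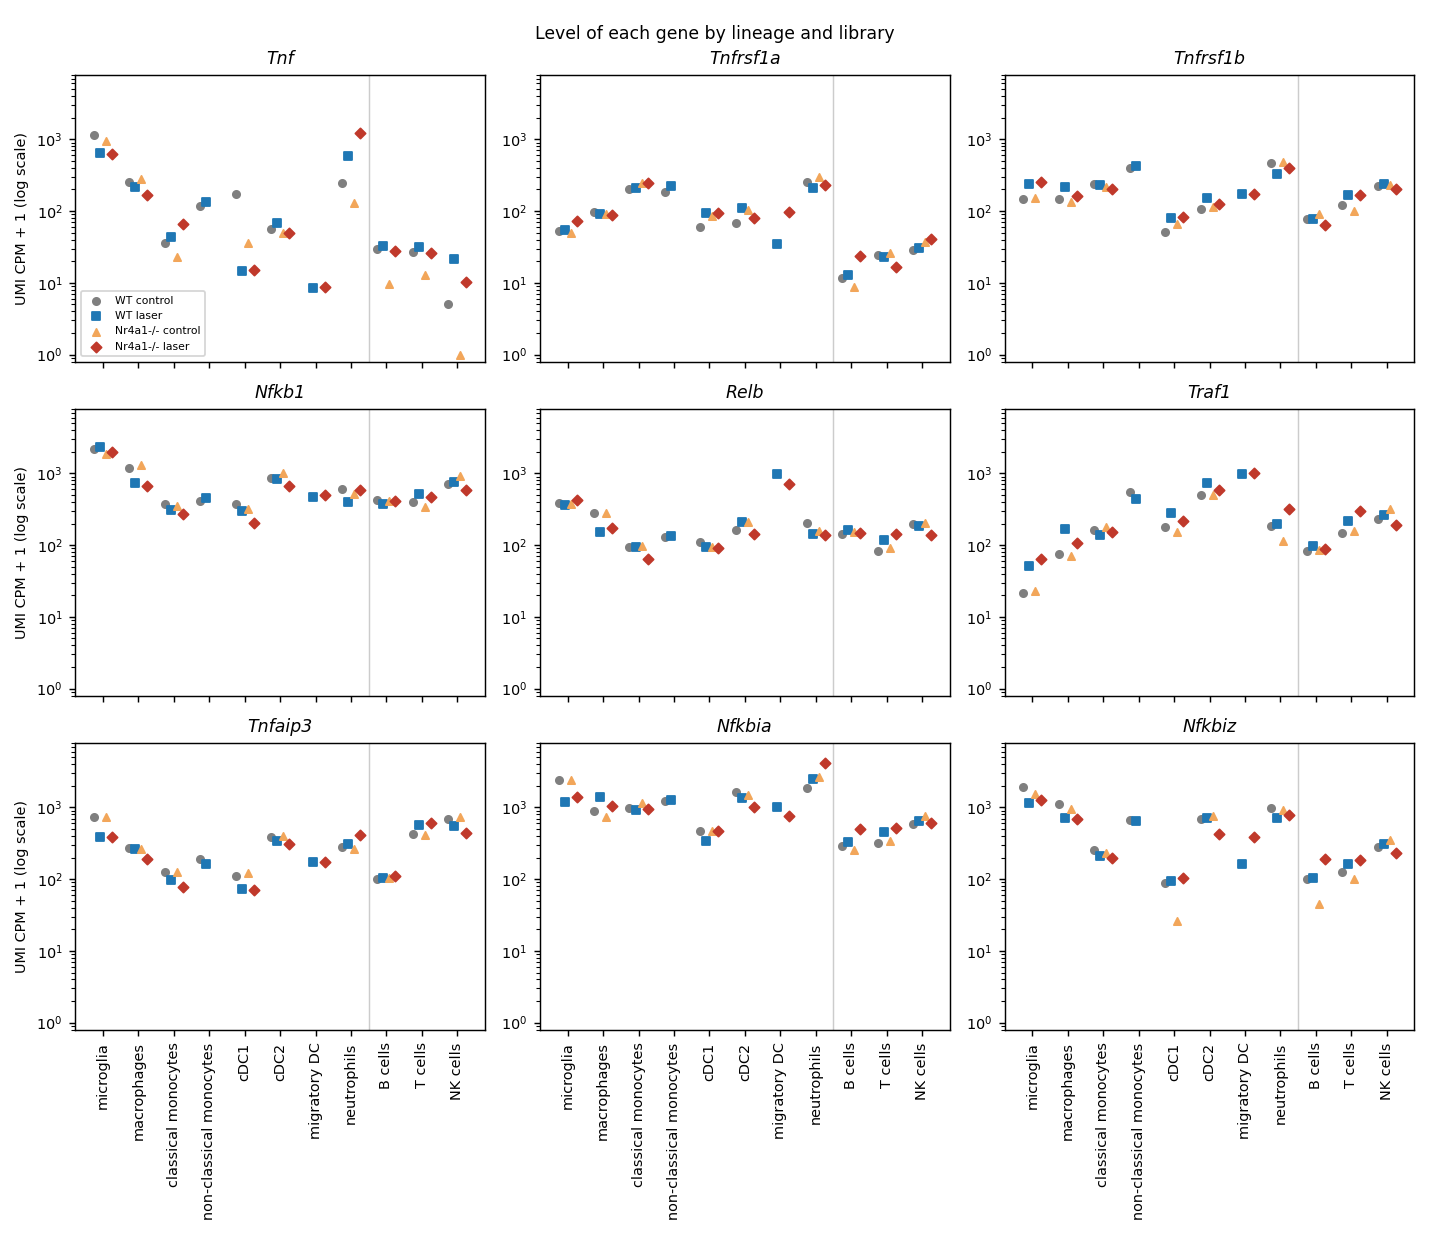
RNA level of the 9 genes in CPM (plotted as CPM + 1, log axis) by lineage, with 1 point per library and 1 panel per gene. Tnf is highest in microglia and in the laser neutrophil samples, Relb and Traf1 are highest in migratory DC, and Tnfrsf1a separates neutrophils and monocytes from lymphoid cells.

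The receptors were ordered differently from the ligand. Tnfrsf1a was highest in neutrophils (256, 209, 301 and 232 CPM) and classical monocytes (202, 211, 247 and 245 CPM), with non-classical monocytes at 182 and 224 CPM in WT, and these ranges overlapped. None of them overlapped with macrophages, which were the steadiest lineage at 91.3 ± 4.0 CPM (SD, n = 4), or with microglia at 56.5 ± 10.3 CPM. NK cells (33.7 ± 5.8 CPM), T cells (21.4 ± 3.9) and B cells (13.3 ± 6.4) were lowest. Thus the lineage highest in Tnf was among the low ones in Tnfrsf1a.

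Tnfrsf1b was likewise highest in neutrophils, at 465, 329, 478 and 399 CPM, and in WT non-classical monocytes, at 396 and 420 CPM. Both stood above NK cells (205 to 234 CPM) and classical monocytes (202 to 241 CPM), which did not differ beyond their spread. Microglia held 147 and 152 CPM in the control libraries and 239.9 and 252 in the laser libraries, so that the conditions did not overlap. B cells (63.2 to 91.0 CPM) and cDC1 (49.98 to 83.0 CPM) were lowest. After thinning, 165 of 330 neutrophils and 53.3% of non-classical monocytes held a Tnfrsf1b UMI, against 0 of 56 non-immune cells.

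Nfkb1 encodes p105, the precursor of the p50 subunit, and Relb encodes a subunit of the alternative pathway. Nfkb1 was highest in microglia in every library (2154, 2307, 1873 and 1956 CPM), and no other lineage overlapped with this range. Macrophages followed at 1197 and 1289 CPM without laser and 736 and 663 CPM with laser. Relb had another leading lineage, the migratory DC, at 992 CPM in WT laser and 702 in Nr4a1-/- laser. Microglia were next at 385, 362, 368 and 430 CPM, without overlap on either side, and classical monocytes were lowest at 62.6 to 96.7 CPM.

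Traf1, an adaptor that NF-kB induces and that binds TRAF2 at TNFR2, was also highest in migratory DC, at 982 and 1009.7 CPM. The cDC2 held 499, 728, 493 and 589 CPM and did not overlap with migratory DC. Microglia were lowest of the 11 lineages, at 20.3 and 22.2 CPM without laser and 50.5 and 62.5 CPM with laser. After thinning, 82.7% of migratory DC and 6.40% of microglia held a Traf1 UMI, against 0 of 56 non-immune cells. Tnf and Traf1 therefore ran in opposite order at their extremes, with Pearson's r of -0.47 over the 40 lineage samples, which share libraries and depth.

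The 3 feedback genes did not share an order. Tnfaip3 was highest in NK cells (681, 551, 726 and 438 CPM), microglia (745, 386, 731 and 386 CPM) and T cells (425, 563, 408 and 603 CPM), which overlapped, and was low in B cells (100.01 to 108 CPM) and cDC1 (68.7 to 119 CPM). Nfkbia was highest in neutrophils (1865, 2455, 2619.5 and 4189 CPM) and microglia (2418, 1181, 2447 and 1392 CPM), and lowest in B cells (256 to 492 CPM). Nfkbiz was highest in microglia (1915, 1134, 1526 and 1262 CPM), above macrophages (1102, 704, 944 and 679 CPM) and neutrophils (994, 713, 929 and 779 CPM). Nfkbia and Nfkbiz were the pair most alike over the 40 samples (r = 0.83). Tnfaip3 was less like Nfkbia (r = 0.37) and Nfkbiz (r = 0.54), with lymphoid and myeloid lineages at the top. Among the members it was most like Nfkb1 (r = 0.68).

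The lineage contrasts were tested with edgeR's quasi-likelihood test on UMI counts summed per lineage and library, with library as a block and Benjamini-Hochberg adjustment over 11950 genes. The p-values measure how lineages deviate between these 4 libraries of pooled eyes once the block is removed, with 1 estimate shared by all lineages. The libraries are different conditions and not replicates, so a response of 1 lineage to laser or genotype widens this spread. The 5 contrasts came from 1 model, and differences are log2 fold changes ± SE.

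Averaged over lineages, myeloid cells held more of 8 of the 9 genes than lymphoid cells, and less of Tnfaip3. All 9 passed at an adjusted p under 0.05, in a contrast where 65.5% of all genes passed (27.2% higher, 38.3% lower). The median log2 change was 0.75 for the 9 genes and -0.11 for all genes. The ligand and TNFR1 differed most. Tnf was higher by 2.80 ± 0.53 (edgeR adjusted p = 1.69e-05) and Tnfrsf1a by 2.70 ± 0.12 (adjusted p = 4.62e-21), whereas Tnfrsf1b differed by 0.75 ± 0.10 (adjusted p = 5.57e-08). The inhibitors Nfkbiz (1.75 ± 0.16, adjusted p = 2.17e-12) and Nfkbia (1.64 ± 0.13, adjusted p = 3.48e-14) followed. Relb, Traf1 and Nfkb1 were higher by 0.74 ± 0.10, 0.66 ± 0.12 and 0.50 ± 0.09, but not in every myeloid lineage. By mean level, Traf1 in microglia (38.8 CPM), macrophages (104) and classical monocytes (157) stood below T cells (205) and NK cells (252). Nfkb1 in cDC1 (298 CPM) and classical monocytes (324) stood below B cells (406), the lowest lymphoid lineage. Relb in classical monocytes (85.9 CPM) stood below T cells (107). Tnfaip3 was lower by a log2 change of -0.29 ± 0.09 (adjusted p = 0.00612), and this call was lost without the Nr4a1-/- laser library (adjusted p = 0.0809, the highest of 12 alternatives, the lowest being 0.0016).

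Other genes of the pathway were taken from lists by role. Of 13 TNF superfamily ligands tested, 3 were higher and 5 lower in myeloid lineages (median -0.83), and of 17 receptors, 7 were higher and 6 lower (median 0.56). Of 20 NF-kB target genes tested, 14 were higher in myeloid lineages and 1 lower, with a median of 2.03, among them Il1b (5.08), Ptgs2 (4.39) and Il1rn (4.24), while Ccl5, a chemokine of T and NK cells, was lower (-4.22). Of 15 other IkB and feedback genes, 11 were higher and 4 lower, led by Ier3 (4.10) and Zfp36 (3.00), which encodes a protein that destabilizes Tnf mRNA. Of 20 receptor-proximal and shedding genes, 6 were higher and 9 lower. Rhbdf2 (2.96) and Adam17 (1.11), whose products release TNF from the cell surface, were among the higher genes. Of 14 immediate-early and stress genes, 10 were higher and the other 4 did not pass, and the part of dissociation in the levels was not tested.

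Macrophages held less Tnf than microglia and more Traf1 and Tnfrsf1a. Of the 9 genes, 8 passed (2 higher, 6 lower), where 38.7% of all genes passed (20.3% higher, 18.5% lower), and the median log2 change was -0.74 against 0.06 for all genes. Tnf was lower by a log2 change of -1.81 ± 0.41 (edgeR adjusted p = 0.000524), Nfkb1 by -1.06 ± 0.17 (4.12e-06), Tnfaip3 by -1.06 ± 0.18 (8.97e-06) and Relb by -0.74 ± 0.18 (0.00109). Traf1 was higher by 1.62 ± 0.26 (3.65e-06) and Tnfrsf1a by 0.82 ± 0.18 (0.000401). Tnfrsf1b did not pass (-0.16, adjusted p = 0.543). The remaining calls were less steady: Nfkbia (-0.78 ± 0.23, adjusted p = 0.00759) reached an adjusted p of at most 0.152 over the 12 alternatives and was lost without either control library, and Nfkbiz (-0.69 ± 0.28, adjusted p = 0.0440) was lost in 4 of 12 alternatives.

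The other listed genes are given against the 18.5% of all genes that were lower. Of 7 NF-kB subunits and IkB kinases, 4 were lower in macrophages and the other 3 did not pass, with Nfkb2 at -0.76, Rela at -0.75 and Rel at -0.56. Of the 15 other feedback genes, 6 were lower and 9 did not pass, including N4bp1 (-1.07) and Tnip1 (-0.84), which limit NF-kB signaling. Target genes were divided, with 6 higher and 6 lower. The cytokine Il1a was lower (-3.12 ± 0.38, edgeR adjusted p = 2.15e-08), and the neutrophil chemokines Cxcl1 (3.16) and Cxcl2 (2.25) were higher in macrophages.

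Neutrophils held more of 7 of the 9 genes than classical monocytes, where 39.7% of all genes passed (17.4% higher, 22.3% lower). With DESeq2 size factors the median of all genes moved from -0.19 to 0.00 and the split of all genes from 2085 higher and 2664 lower to 2545 higher and 2054 lower. The median of the members was 1.00, and the 7 that passed differed by 0.75 or more. Tnf was higher by 3.62 ± 0.51 (edgeR adjusted p = 3.18e-07), Nfkbiz by 2.01 ± 0.30 (8.20e-07), Tnfaip3 by 1.56 ± 0.20 (6.41e-08) and Nfkbia by 1.45 ± 0.24 (5.29e-06). Tnfrsf1b (1.00 ± 0.20), Relb (0.97 ± 0.22) and Nfkb1 (0.75 ± 0.18) also passed, the last not when lineages were taken from clusters (adjusted p = 0.0712, against 1.53e-06 to 0.0712 over 12 alternatives). Traf1 (0.28, adjusted p = 0.423) and Tnfrsf1a (0.25, adjusted p = 0.307) did not pass, though Tnfrsf1a did with DESeq2 size factors. Of the other feedback genes, 8 of 15 were higher and 7 did not pass, with N4bp1 at 2.61, Gadd45b at 2.43 and Tnip1 at 1.84, and 12 of 20 target genes were higher and 3 lower.

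Among the members that passed, Relb differed most between migratory DC and cDC2. Of the 9 genes, 4 passed (1 higher, 3 lower), where 18.5% of all genes passed (9.05% higher, 9.45% lower). Relb was higher by 2.34 ± 0.24 (edgeR adjusted p = 1.30e-09). Nfkbiz (-1.35 ± 0.41, adjusted p = 0.0167), Tnfaip3 (-0.86 ± 0.27, adjusted p = 0.0200) and Nfkb1 (-0.64 ± 0.23, adjusted p = 0.0483) were lower. Without the WT laser library, which left 20 migratory DC, Relb alone passed, and Nfkb1 passed in 1 of 10 alternatives. Tnf (-2.91, adjusted p = 0.103) had a larger change than Relb but did not pass, and rested on levels near background. This was the same in 8 of 10 alternatives, and Tnf passed with the DESeq2 Wald test and with no filter on low counts.

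The other listed genes are given against the 9.05% of all genes that were higher in migratory DC. Of 7 subunits and IkB kinases, 4 were higher and 3 did not pass. The higher ones were Map3k14, the kinase NIK (1.74 ± 0.28, adjusted p = 1.16e-05), Nfkb2, the partner of RelB (1.24 ± 0.24, 0.000206), Rel (0.91 ± 0.19) and Ikbkb (0.77 ± 0.18). Of the 20 receptor-proximal genes, 3 were higher and 17 did not pass, namely Birc2 (3.31 ± 0.26), Traf3 (2.07 ± 0.29) and Traf6 (1.58 ± 0.33), and Birc2 and Traf3 encode proteins that degrade NIK. Of 17 TNF superfamily receptors, 4 were higher, among them Tnfrsf9 (7.92) and Tnfrsf4 (6.65), and 3 were lower. Of 20 NF-kB target genes, 3 were higher and 4 lower, where 9.45% of all genes were lower. Of the immediate-early and stress genes, 6 of 14 were lower and 8 did not pass.

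T cells exceeded B cells in 4 of the 9 genes, where 34.6% of all genes passed (18.1% higher, 16.5% lower). Tnfaip3 was higher by 2.40 ± 0.19 (edgeR adjusted p = 5.00e-13), Traf1 by 1.24 ± 0.25 (9.23e-05), Tnfrsf1a by 1.07 ± 0.25 (0.000607) and Tnfrsf1b by 0.87 ± 0.20 (0.000682), and these 4 passed in all 12 alternatives. Tnf (0.08, adjusted p = 0.933), Nfkb1 (0.16, 0.528), Nfkbia (0.35, 0.275) and Nfkbiz (0.54, 0.172) did not pass. Relb (-0.45, adjusted p = 0.0686) stood the other way and passed in 5 of 12 alternatives. Among the listed genes, Rel was lower in T cells (-2.53 ± 0.17, adjusted p = 1.80e-15) and the ligands Tnfsf8 (4.94) and Fasl (4.28) were higher.

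**Figure D2:**
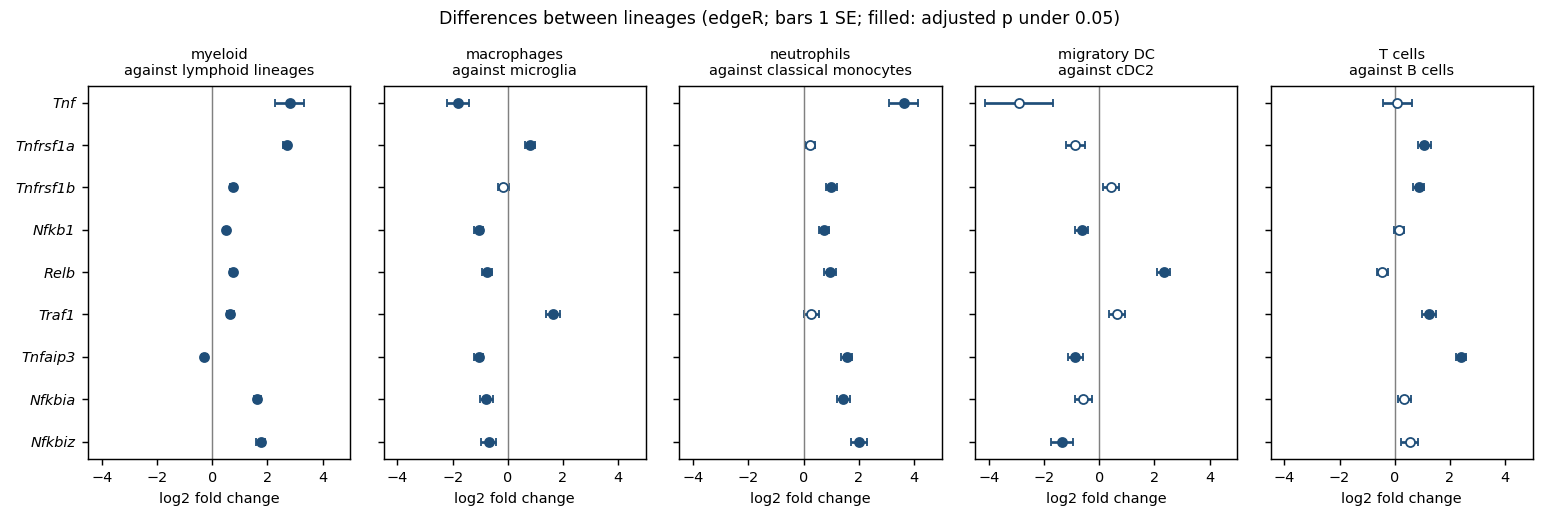
Log2 fold change (± SE) of the 9 genes in the 5 lineage contrasts, with filled points for an edgeR adjusted p under 0.05. Neutrophils stand above classical monocytes in 7 genes, macrophages below microglia in 6, and Relb is the gene that stands above 0 with a filled point in migratory DC against cDC2.

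Laser was compared with control within each lineage, in WT and in Nr4a1-/- separately, and a pair of a gene and a lineage was called when it differed at least 2-fold with at least 20 UMIs over both libraries. In WT, 6 of 90 pairs were called (4 higher, 2 lower), and in Nr4a1-/-, 10 of 80 (9 higher, 1 lower). The split in Nr4a1-/- depended on the processing, with 3 higher and 6 lower when lineages were taken from clusters and 3 higher and 3 lower when cells were thinned to 2000 UMIs. Over the same lineages, 5.35% of all such pairs of any gene were higher and 3.92% lower in WT, and 5.44% were higher and 6.65% lower in Nr4a1-/-. Neither comparison has a replicate.

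In microglia, Tnf and the feedback genes had laser ratios below 1 in both genotypes, most of them within 2-fold. Tnf went from 1157 to 639.6 CPM in WT (ratio 0.553, 95% interval 0.525 to 0.582) and from 935 to 617 CPM in Nr4a1-/- (0.660, 0.585 to 0.743). Tnfaip3 went from 745 to 386 CPM (0.518, 0.485 to 0.554) and from 731 to 386 CPM (0.528, 0.454 to 0.612). Nfkbia went from 2418 to 1181 CPM (0.489, 0.471 to 0.507) and from 2447 to 1392 CPM (0.569, 0.526 to 0.615). Of these, Nfkbia in WT was past 2-fold, as were 4.16% of genes on the lower side. Nfkbiz stood at 0.592 and 0.827. The NF-kB subunits had ratios nearer to 1, at 1.07 and 1.04 for Nfkb1 and 0.941 and 1.17 for Relb.

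Traf1 was past 2-fold higher in the same microglia. The receptors were not past 2-fold: Tnfrsf1b ratios were 1.63 (1.45 to 1.83) in WT and 1.65 (1.33 to 2.04) in Nr4a1-/-, and those of Tnfrsf1a were 1.05 and 1.46. Traf1 went from 20.3 to 50.5 CPM (2.49, 1.84 to 3.41) and from 22.2 to 62.5 CPM (2.82, 1.72 to 4.62), and both were past 2-fold, as were 7.15% and 6.50% of genes on the higher side. In Nr4a1-/- the Traf1 ratio was 1.81 when microglia were taken from clusters. Among listed genes, Tnfrsf11a, which encodes the receptor RANK, was higher in both genotypes (74.9 to 283 CPM and 90.4 to 259 CPM).

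A list of immediate-early and dissociation stress genes, which cells induce while tissue is taken apart, stood lower in the same libraries. Their summed level in microglia was 20479.8 and 9719 CPM in WT without and with laser and 24238 and 12592 CPM in Nr4a1-/-, and 8 and 7 of 14 genes were past 2-fold lower, among them Jun (ratios 0.281 and 0.440), Egr1 (0.259 and 0.398) and Dnajb1 (0.412 and 0.333). Zfp36 was lower as well (0.466 and 0.398). In macrophages the same sum went from 15854 to 11599 CPM and from 16363 to 10376 CPM. Their part in the lower Tnf, Tnfaip3 and Nfkbia was not tested.

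In macrophages, Traf1 in WT was the member past 2-fold, and the other ratios are given as values. Nfkbia went from 879 to 1389 CPM in WT (1.58, 1.51 to 1.65) and from 737 to 1051 CPM in Nr4a1-/- (1.43, 1.33 to 1.53). Traf1 went from 74.9 to 165 CPM (2.20, 1.90 to 2.56) and from 70.2 to 106 CPM (1.51, 1.201 to 1.91), and 4.70% of genes were past 2-fold higher in WT. Nfkb1 ratios were 0.615 and 0.514, Relb 0.543 and 0.626, Nfkbiz 0.638 and 0.719, and Tnf 0.855 and 0.610. TMM scaling would add 0.13 and 0.10 to these log2 ratios and turns none of their directions.

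Because the macrophage gate held more cells with Spp1 and Gpnmb after laser (19 and 229 cells in WT, 20 and 101 in Nr4a1-/-), the macrophages with resident genes (Lyve1, Folr2, Cd163 and others) were also read alone. A cell joined this subset with at least 40% of its markers, so its make-up is not fixed across libraries. It held 240 and 367 cells in WT and 127 and 181 in Nr4a1-/-. Median depths in the same order were 7163, 11170, 7058 and 5209 UMIs per cell. The part of make-up and depth in the laser and genotype ratios of this subset was not tested. In this subset, Traf1 went from 40.9 to 179 CPM in WT (4.36, 3.42 to 5.64) and from 30.03 to 80.6 CPM in Nr4a1-/- (2.68, 1.72 to 4.29). Nfkbia went from 836 to 1658 CPM (1.98, 1.87 to 2.10) and from 608 to 1138 CPM (1.87, 1.69 to 2.07). Tnfrsf1b ratios were 2.13 (1.83 to 2.49) and 1.54. Past 2-fold higher in this subset were 4.64% of all genes in WT and 3.54% in Nr4a1-/-. Tnf ratios were 1.09 and 0.593.

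**Figure D3:**
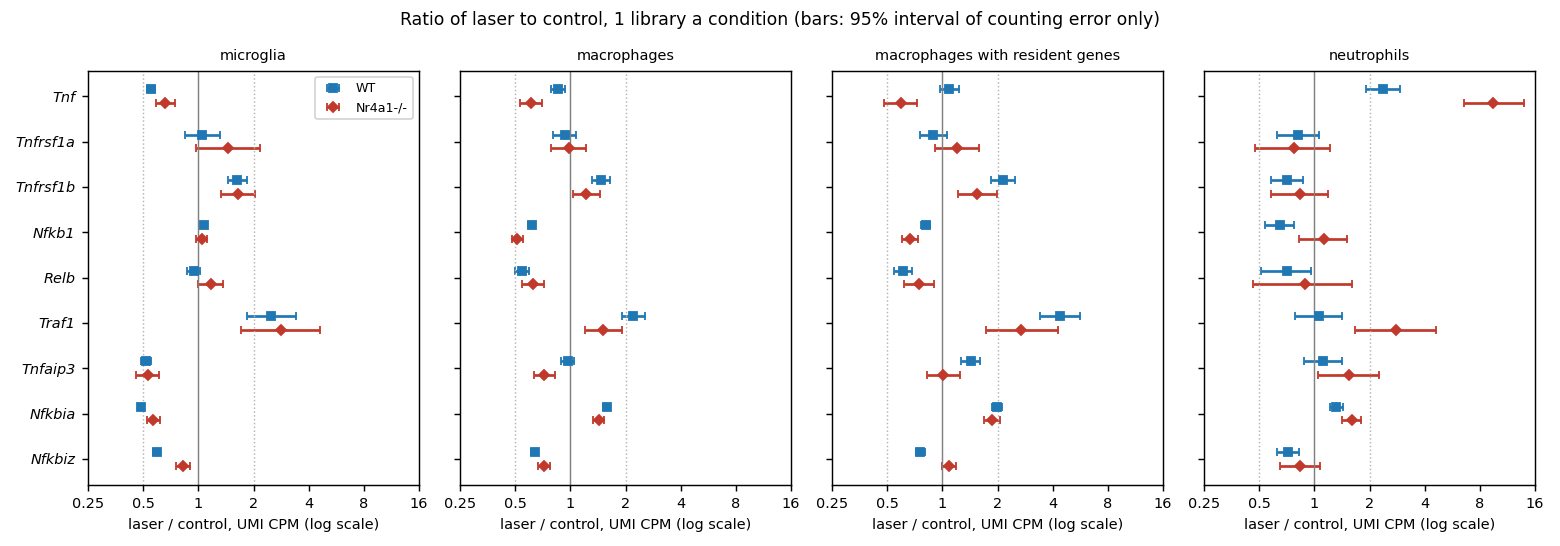
Ratio of laser to control CPM (log axis) for the 9 genes in microglia, macrophages, macrophages with resident genes and neutrophils, with WT and Nr4a1-/- side by side and 95% counting intervals. Nfkbia lies below 1 in microglia and above 1 in macrophages in both genotypes, and the Tnf ratio is largest in Nr4a1-/- neutrophils (9.46).

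Neutrophils held more Tnf after laser in both genotypes, past 2-fold in each. Tnf went from 246 to 580 CPM in WT (2.36, 1.92 to 2.92) and from 130 to 1233 CPM in Nr4a1-/- (9.46, 6.58 to 13.9), where 16.5% and 16.7% of genes were past 2-fold higher. Nfkbia ratios were 1.32 and 1.599, and those of Tnfaip3 1.12 and 1.54. Traf1 was past 2-fold in Nr4a1-/- (114 to 315 CPM, 2.77, 1.67 to 4.60). Among NF-kB targets, Ccl3 (7.30 and 11.5), Il1a (3.53 and 7.28) and Ccl4 (2.07 and 16.8) were higher in both genotypes. TMM scaling lowers every log2 ratio in this lineage by 0.35 in WT and 0.53 in Nr4a1-/-, after which Tnf stood at 1.86 and 6.57, Traf1 at 1.93, Nfkbia at 1.03 and 1.11, and Tnfaip3 in WT at 0.877.

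Neutrophils fell into 2 main clusters, which were made without the members or the listed genes, and the laser libraries held most of the second. Cluster 27 was led by S100a8, S100a9, Csf1, Il1b, Tnfaip2 and Ccrl2. Of these, only Il1b was a listed gene, and the others were not excluded when the clusters were made. Cluster 27 held 5 of 140 WT control neutrophils (3.57%), 45 of 108 WT laser (41.7%), 1 of 84 Nr4a1-/- control (1.19%) and 27 of 48 Nr4a1-/- laser neutrophils (56.2%). In it, Tnf stood at 1378 CPM in WT laser and 2232 in Nr4a1-/- laser. In cluster 14, which held most control neutrophils, Tnf stood at 226, 112, 137 and 204 CPM, the last from 17 cells. Nfkbia, Tnfaip3 and Traf1 differed in the same direction between the clusters in the laser libraries: Nfkbia stood at 4157 and 6228 CPM in cluster 27 against 1495 and 2748 in cluster 14, Tnfaip3 at 503 and 710 against 199 and 305, and Traf1 at 231 and 325 against 120.4 and 102. The receptors stood the other way, with Tnfrsf1a at 124 and 203 CPM in cluster 27 against 287 and 339 in cluster 14, and Tnfrsf1b at 284 and 365 against 378 and 577. In Nr4a1-/- laser the Poisson intervals of Tnfaip3, Traf1, Tnfrsf1a and Tnfrsf1b overlapped between the clusters. Those of Traf1 and Tnfrsf1b also overlapped in WT laser. The Nr4a1-/- laser values rested on few UMIs, such as 10 for Tnfrsf1a in each cluster and 3 for Traf1 in cluster 14. These values describe the clusters and are not a test, since clusters are made from the cells they divide. Cluster 27 was also the more weakly marked. Its 157 cells, gated or not, held 35.7% of the neutrophil markers on average, against 81.8% in cluster 14.

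Once cluster 27 was left out, which was decided with the values in view, the WT ratio of Tnf turned from 2.36 to 0.517 (0.341 to 0.765, 63 laser and 135 control cells). In Nr4a1-/- it was 3.00 (1.71 to 5.16, 21 and 83 cells), but 6 of the 23 laser UMIs came from the 17 cells of cluster 14 and the rest from the other 4 cells, which lay in clusters 23, 25 and 30. Within cluster 14, Tnf stood at 204 CPM with laser (Poisson interval 74.7 to 443) and 137 CPM without. The Nfkbia ratios became 0.820 and 0.942. Tnf and Nfkbia in WT neutrophils after laser thus were higher with the cells of cluster 27 and lower without them.

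**Figure D4:**
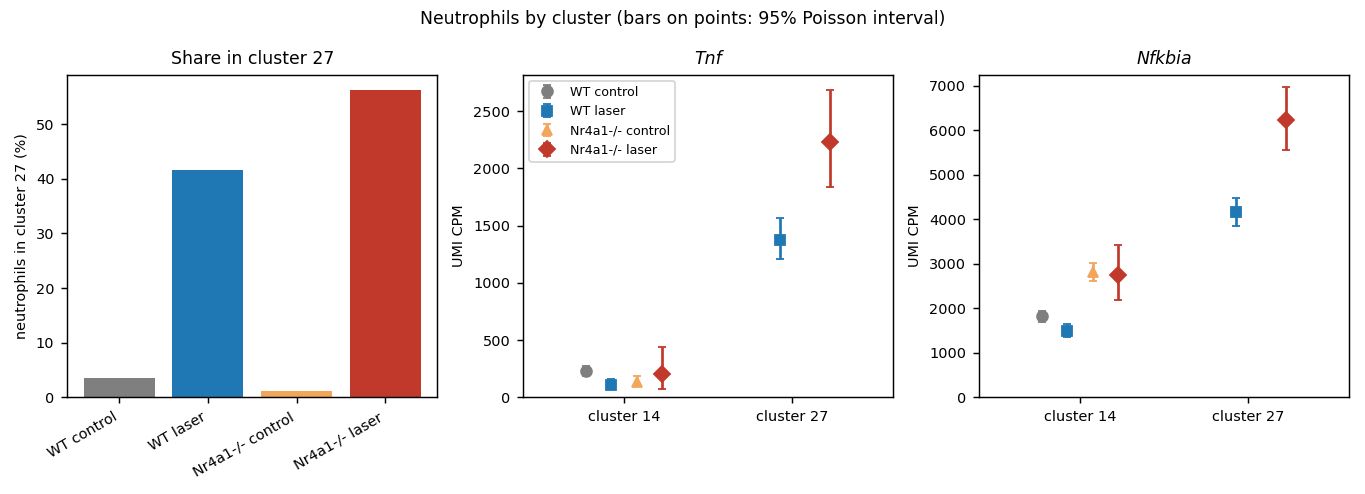
Percent of gated neutrophils in cluster 27 per library (bars) and Tnf and Nfkbia RNA in CPM in clusters 14 and 27 (points with 95% Poisson intervals, groups of at least 15 cells). The laser libraries hold 41.7% and 56.2% of their neutrophils in cluster 27, and Tnf there stands at 1378 and 2232 CPM.

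In T cells no member was past 2-fold in WT. Laser ratios in WT and Nr4a1-/- were, within 2-fold, as follows for 7 members: Tnfrsf1b (1.36 and 1.68), Nfkb1 (1.29 and 1.38), Relb (1.43 and 1.56), Traf1 (1.45 and 1.90), Tnfaip3 (1.32 and 1.48), Nfkbia (1.41 and 1.54) and Nfkbiz (1.30 and 1.79). The median log2 ratio over all T cell genes was 0.09 and 0.04, and TMM scaling would lower every log2 ratio by 0.08 and 0.13. In classical monocytes Tnf was past 2-fold in Nr4a1-/- (21.7 to 65.5 CPM, 3.01, 1.65 to 5.45, with 2.39% of genes past it) and stood at 34.8 and 42.8 CPM in WT. B cells of Nr4a1-/- held more Nfkbiz with laser (43.5 to 187 CPM, 4.31, 3.17 to 5.84), where 4.54% of genes were past 2-fold higher, and the ratio was 1.58 with B cells from clusters. The called Tnf ratios in B and T cells (3.11 and 2.11) and the Tnfrsf1a ratio in B cells (2.90) of Nr4a1-/- rested on levels of at most 27.1 CPM (4.67% of genes were past 2-fold higher in the T cells).

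Some calls rested on a single cell. Tnf in WT cDC1 went from 173 to 13.7 CPM (0.0794, 0.0448 to 0.132, with 6.15% of genes past 2-fold lower), but 1 control cell held 95 of 128 UMIs (74.2%), and without the top cell of each library the ratio was 0.198. Tnf in WT NK cells (4.92, 2.03 to 14.4, with 2.75% past 2-fold higher) had 26 of 33 laser UMIs (78.8%) in 1 cell, and without it too few UMIs were left to count. In Nr4a1-/- cDC1, where 7.26% of genes were past 2-fold higher and 5.27% lower, Tnf stood at 0.414 (0.135 to 1.08) and Nfkbiz at 4.12 (25.3 to 104 CPM), which turned to 0.571 when cDC1 were taken from clusters. The step without top cells was also added once the values had been seen.

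Genotype was compared within control and within laser, and these ratios use the same 4 libraries as the laser ratios, so the sets are not independent. Without laser, 5 of 80 pairs were called, all lower in Nr4a1-/-, and with laser 4 of 89 (3 higher, 1 lower). This split too depended on the processing. With cells thinned to 2000 UMIs, 1 was higher and 2 lower of 71 pairs without laser, and 2 higher and 3 lower of 69 with laser. Of all pairs of any gene over the same lineages, 2.21% were higher and 3.61% lower without laser, and 3.59% were higher and 6.85% lower with laser. In microglia and macrophages no member was called. The Nr4a1-/- mice without laser gave a library whose number is unlike those of the rest, and any difference in its preparation cannot be told apart from its group.

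Tnf in neutrophils stood on opposite sides in the pairs. It was at 246 CPM in WT and 130 in Nr4a1-/- without laser (0.531), and at 580 and 1233 CPM with laser (2.13, 1.71 to 2.63, with 7.50% of genes past 2-fold higher). TMM scaling lowered the laser ratio to 1.74, and without cluster 27 it was 3.44 (1.93 to 6.04), a value that rests on the same 4 cells. Within cluster 14, Tnf stood at 112 CPM in WT (73.9 to 163) and 204 in Nr4a1-/- (74.7 to 443). Traf1 in macrophages with resident genes was lower in Nr4a1-/- after laser (179 and 80.6 CPM, 0.452, 0.354 to 0.571, with 4.15% of genes past 2-fold lower), and there Tnf and Tnfaip3 stood at 0.606 and 0.643.

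The called genotype ratios in small or low groups were less steady. Nfkbiz in control B cells was 99.0 CPM in WT and 43.5 in Nr4a1-/- (0.439, 0.347 to 0.551, with 3.63% of genes past 2-fold lower) and 0.629 with B cells from clusters. Tnf in control B cells (0.301) and T cells (0.455, with 3.83% of genes past 2-fold lower) was near background, as was Tnf in laser NK cells (0.463, with 6.42%). The ratios in control cDC1 (Tnf 0.199, Nfkbiz 0.288, with 4.96%) were also unsteady: in WT control 1 cell held 95 of 128 Tnf UMIs and 1 cell held 30 of 65 Nfkbiz UMIs, and Nfkbiz stood at 0.825 from clusters. In laser migratory DC, Nfkbiz was 162 CPM in WT and 387 in Nr4a1-/- (2.38, 1.64 to 3.42) and Tnfrsf1a 33.9 and 94.7 CPM (2.79, 1.23 to 6.12), from 46 and 20 cells, with 6.28% of genes past 2-fold higher.

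Of the other NF-kB targets, Cxcl10, an interferon-inducible chemokine, was lower in Nr4a1-/- in both pairs in macrophages (0.354 and 0.452), neutrophils (0.264 and 0.399) and T cells (0.230 and 0.153). Classical monocytes of Nr4a1-/- held less Map3k14 (0.452 and 0.439) and Ccl5 (0.160 and 0.0726) and more Ccl3 (2.37 and 3.94) and Tnfsf9 (2.95 and 2.48). The Tnf ratios of the same monocytes are 21.7 over 34.8 CPM without laser and 65.5 over 42.8 CPM with laser.

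TNFR2 protein could be read beside its RNA, because the tag panel held CD120b. By mean over libraries the tag was highest in neutrophils, at 33.5, 28.2, 4.33 and 42.3 per 10000 tag UMIs of the lineage, and next in microglia, at 25.9, 21.9, 22.9 and 20.4. Neutrophils were also highest in Tnfrsf1b RNA by mean. As tag shares, macrophages held 13.5, 13.6, 12.5 and 22.3, and T cells 14.4, 13.4, 7.38 and 11.5. The order of lineages depended on the scale. By mean tag UMIs per cell, neutrophils (2.11) were followed by migratory DC (1.66, laser libraries only), and microglia stood at 0.425. By mean centered log ratio, migratory DC were highest (0.083), with classical monocytes at -0.047, neutrophils at -0.048 and microglia at -0.176. In microglia the direction of the tag after laser depended on the scale: the share went from 25.9 to 21.9 in WT and from 22.9 to 20.4 in Nr4a1-/-, the mean tag UMIs per cell from 0.457 to 0.612 and from 0.348 to 0.283, and the mean centered log ratio from -0.19 to -0.19 and from -0.24 to -0.09.

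The low values had a compositional side. Where the tag read 4.33 (Nr4a1-/- control neutrophils), Ly-6G took 7242 of 10000 tag UMIs, against 270.2 to 342 in the neutrophils of the other libraries, and where it read 3.63 (Nr4a1-/- laser classical monocytes), Ly-6C took 6626, against 237 to 1886. Across lineages, Pearson's r between tag share and Tnfrsf1b CPM was 0.73, 0.38, -0.04 and 0.64 in the 4 libraries (n = 10, 11, 9 and 10 lineages, which share a library and tag depth). With the mean centered log ratio in place of the share, r was 0.90, 0.17, 0.61 and 0.51. Tag depth was low, with 0.104 to 3.98 CD120b UMIs per cell by lineage, and no isotype control was in the panel, so a background level could not be subtracted.

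**Figure D5:**
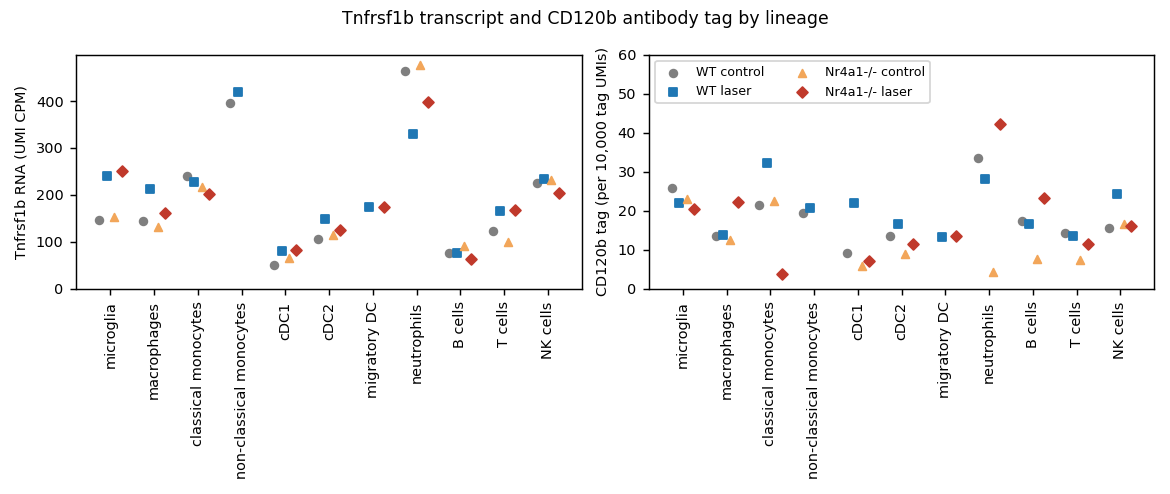
Tnfrsf1b RNA in CPM (left) and CD120b tag per 10000 tag UMIs (right) by lineage, with 1 point per library. Neutrophils have the highest RNA level in 3 of 4 libraries, and the lowest tag points (4.33 in neutrophils and 3.63 in classical monocytes) are the samples in which Ly-6G or Ly-6C took most tag UMIs.

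The genes whose level most resembled each member over the 40 lineage samples, by Pearson's r of log2(CPM + 1) among 8305 genes with a mean of at least 10 CPM, were named as a description. They were Gpr84 (0.89), Nlrp3 (0.84) and Il1a (0.84) for Tnf, Gnai2 (0.91) for Tnfrsf1a, Stx11 (0.85) for Tnfrsf1b, Arih1 (0.83) for Nfkb1, Gtf2a1 (0.87) for Relb, Bhlhe40 (0.92) for Traf1, Gm20186 (0.81) for Tnfaip3, Ccrl2 (0.90) for Nfkbia, and Casp4 (0.87), Kdm6b (0.85) and Zeb2 (0.85) for Nfkbiz. Fscn1 (0.84), the second gene for Relb, is itself a marker of the migratory DC gate. The 40 samples share 4 libraries and the same lineages, so these values carry no test.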

How the data were processed

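CITE-seq was performed on CD45+ cells of 4 groups, each with 1 RNA library and 1 antibody-tag library of the same cells. The deposited files hold raw UMI counts per gene and cell and per tag and cell, which the authors made with Cell Ranger 7.0.1 on mm10. The labels name the v2 kit and the methods v3. The genotype and treatment fields of the tag samples disagree with their titles, so these samples were matched by title. The 9 genes and all gene lists were chosen with earlier results of these data known.

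The study's cell limits (between 200 and 5000 genes, no more than 15% of UMIs mitochondrial) left 11223 cells, and no doublet caller was run. A cell joined a lineage when it held at least 30% of 10 markers (microglia 50%) and led the next list by 20 points, which leaves out mixed cells. Counts were summed per lineage and library (at least 20 cells, 40 sums), with 26 residual degrees of freedom, and tested with edgeR 4.0.16 (limma 3.58.1, R 4.3.3), with TMM scaling, a filter on low counts, library as a block and lineage as the factor. On simulated data for macrophages against microglia (11950 genes), edgeR recovered 63% of 2-fold and 99% of 4-fold changes and called 5 of 11750 unchanged genes. Laser and genotype ratios of CPM have exact conditional binomial 95% intervals, shares of cells exact binomial ones, and levels by cluster Poisson ones. All of these cover counting error only. Clusters (32, of which 23 were named) used 2000 genes, 30 components, 20 neighbors and a resolution of 1.2. Tags are shares of all tag UMIs, of which the 4 tag libraries held 585427 to 2388717.

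Alternatives were DESeq2 1.42.0 (its size factors and its Wald test), no filter on low counts, sums of at least 50 cells, each library left out, other cell filters, thinning to 2000 UMIs, lineages from clusters, TMM-scaled CPM and a minimum of 50 UMIs. Named were all 9 genes, up to 4 called genes of each list by size of change (in ratios, past 2-fold in both pairs), the 3 genes most like each member, and Nr4a1, and the text gives a selection of them. Promoter windows came from RefSeq (GRCm38.p6). Python 3.11.15 with numpy 2.4.6, scipy 1.17.1, pandas 2.3.3 and scikit-learn 1.9.0 was used.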

Additional observations from a re-analysis of the deposited data

Results flagged for a closer look

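In 11 cases a ratio lay above 1 in one pair of libraries and below 1 in the other, with both 95% counting intervals clear of 1. The difference between the pairs was not tested, since each value rests on 1 library per group and the intervals cover counting error only. Tnf in neutrophils was the one with a ratio past 2-fold on the higher side: Nr4a1-/- stood at 0.531 of WT without laser and at 2.13 with laser. Traf1 in the same cells stood at 0.618 and 1.62, and the share of neutrophils in cluster 27 was 3.57% (WT) and 1.19% (Nr4a1-/-) without laser and 41.7% and 56.2% with laser. The part of this share in the ratios was not tested.

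In B cells, Nfkbiz stood at 0.439 of WT without laser and at 1.81 with laser, and Nfkbia at 0.887 and 1.51. NK cells of Nr4a1-/- went the other way for 3 genes, with Nfkb1 at 1.27 without laser and 0.762 with laser, Traf1 at 1.38 and 0.724, and Nfkbiz at 1.28 and 0.768. Nfkbia in NK cells gave laser ratios of 1.12 in WT and 0.812 in Nr4a1-/-. The remaining cases were small: Nfkb1 in macrophages (1.08 and 0.901) and in cDC2 (1.19 and 0.791), and Nfkbiz in microglia (0.797 and 1.11).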

How the results depend on the processing

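No paired analysis was possible because each condition is 1 library and no replicate numbers link the groups, while the lineage contrasts already hold the library as a block. Thinning every cell to 2000 UMIs lowered the number of genes called from 7826 to 4741 (myeloid against lymphoid), 4629 to 2666 (macrophages against microglia), 4749 to 3010 (neutrophils against classical monocytes), 2211 to 812 (migratory DC against cDC2) and 4135 to 2617 (T against B cells), and the calls among the 9 genes in migratory DC from 4 to 2. Leaving out 1 library at a time gave 8 to 9, 6 to 7, 7, 1 to 3 and 4 to 5 members called in these contrasts, and 370 to 1997 genes called in migratory DC, with the lowest values there without WT laser (1 member and 370 genes). Of 522 log2 changes of members under alternatives, 486 kept their direction and side of the threshold, 15 newly passed it and 21 no longer did. Of 1967 member ratios, 1785 moved by less than their counting interval, 180 moved by more and 2 called ratios changed direction, namely Tnf in WT neutrophils without cluster 27 (0.517, chosen after seeing the data) and Nfkbiz in Nr4a1-/- cDC1 from clusters (0.571). The cause of the second was not tested.

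Called laser pairs in Nr4a1-/- numbered 6 when thinned (3 higher, 3 lower), 6 at a minimum of 50 UMIs and 9 from clusters (3 higher, 6 lower), against 10 before (9 higher, 1 lower). Called genotype pairs without laser numbered 3 when thinned (1 higher, 2 lower) and 3 from clusters (5 before, all lower). Those with laser numbered 2 from clusters and 2 at 50 UMIs, and were 2 higher and 3 lower when thinned (4 before, 3 higher and 1 lower). The median share of cells with a UMI over the 99 members and lineages was 30.7% thinned and 58.7% as deposited. The contrast of migratory DC could not be run from clusters or with 50 cells per sum. With 1 library per condition and 48 neutrophils in Nr4a1-/- laser, ratios within 2-fold are given as values and were not called.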

Other observations

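Listed genes around the pathway showed further values in which both genotypes or both treatments had a ratio on the same side, given without a test. In macrophages, laser libraries held less Vcam1 (0.189 in WT and 0.144 in Nr4a1-/-), an adhesion molecule, and less of the chemokines Ccl3 (0.368 and 0.317) and Ccl4 (0.475 and 0.399), the reverse of neutrophils, and more Ccl5 (2.43 and 7.06). Macrophages with resident genes held more Tnfsf9 with laser (3.77 and 2.52), which encodes the ligand of the receptor 4-1BB. In neutrophils, Icam1 stood higher with laser (2.69 and 3.44), and Ccl2 lower in Nr4a1-/- than in WT (0.0860 without laser and 0.152 with laser). Fosb in T cells stood higher with laser (2.31 and 4.80), as did Bcl2a1d (2.02 and 2.14), a survival gene that NF-kB induces.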
